A study of Arabidopsis thaliana with 12 samples.

Results

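Seed storage proteins are the nitrogen and sulfur reserve of the Arabidopsis seed, and 9 of their genes were followed here in whole seedlings. The genes were PAP85 (AT3G22640), a vicilin-like 7S globulin of the cupin family, the 12S cruciferins CRA1 (AT5G44120), CRB (AT1G03880) and CRC (AT4G28520), and the 2S albumins SESA1 (AT4G27140), SESA2 (AT4G27150), SESA3 (AT4G27160), SESA4 (AT4G27170) and SESA5 (AT5G54740). They are 9 of the 27371 genes listed in the deposited expression table, and they were taken by identifier. The set was chosen by the FPKM of PAP85, which separate the genotype labels in these data, so the PAP85 difference between the labels is a description and was not tested, and the question was whether the other seed storage genes follow it.

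RNA-seq had been done on 14-day-old seedlings of the ecotype Columbia-0 in 4 groups of 3 libraries. They are named by the labels WT or Atg3bp1 for the genotype, and mock or hrcC for the treatment. The hrcC groups had received Pst DC3000 hrcC-, a Pseudomonas syringae strain without a working type III secretion system, for 24 h. The mutant is a single T-DNA insertion line of AtG3BP1 (AT5G48650), which encodes an RNA-binding homolog of a human stress granule protein. The transcript of AtG3BP1 went against the labels: it was 0.0179 to 0.426 FPKM in the 6 libraries labelled WT and 11.4 to 18.4 FPKM in the 6 libraries labelled Atg3bp1. FPKM are fragments scaled by transcript length and library size, so levels of different genes can be compared. Each genotype direction given here is therefore that of the labels.

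Storage protein genes are transcribed in the maturing embryo. The transcription factors LEC1, LEC2, FUS3 and ABI3 switch them on, the last 3 as B3 domain proteins that bind the RY element, and bZIP factors such as BZIP53 act with them at G-box related elements. After germination the programme is shut by the B3 repressors HSI2 and HSL1, the chromatin remodeler PKL and Polycomb group proteins such as CLF and SWN, and the stored proteins are broken down to feed the seedling.

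The promoters of the 9 genes were read from the TAIR10.1 genome as the 250 bases before each annotated transcription start and searched on both strands for the RY core CATGCA and the G-box CACGTG, with overlapping matches counted. The RY core was found in 8 of 9 members, all but CRB, and in 8.43% of the 27443 promoters of protein-coding genes. The G-box was found in 5 of 9, the 2S albumins, and in 6.49% of all promoters, and both together in the same 5 and in 0.678% of all. The following 4 are shown because PAP85 carries the genotype label difference, CRA1 is the cruciferin above 0, SESA1 was above 0 in hrcC libraries alone, and SESA3 was listed at 0 in every library although it has the most matches. They cover chr3:8013942-8014191 (minus strand), chr5:17758337-17758586 (minus strand), chr4:13607079-13607328 (plus strand) and chr4:13611546-13611795 (plus strand), in that order, each written 5′ to 3′ with matches in capitals.
PAP85: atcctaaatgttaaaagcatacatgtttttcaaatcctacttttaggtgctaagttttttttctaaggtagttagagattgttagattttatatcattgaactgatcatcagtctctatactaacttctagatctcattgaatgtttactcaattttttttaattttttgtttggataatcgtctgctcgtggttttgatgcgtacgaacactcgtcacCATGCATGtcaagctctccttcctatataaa
CRA1: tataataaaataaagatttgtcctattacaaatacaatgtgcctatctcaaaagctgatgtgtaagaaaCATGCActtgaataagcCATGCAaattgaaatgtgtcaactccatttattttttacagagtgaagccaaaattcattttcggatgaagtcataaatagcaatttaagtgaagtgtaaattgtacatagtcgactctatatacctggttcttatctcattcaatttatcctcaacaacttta
SESA1: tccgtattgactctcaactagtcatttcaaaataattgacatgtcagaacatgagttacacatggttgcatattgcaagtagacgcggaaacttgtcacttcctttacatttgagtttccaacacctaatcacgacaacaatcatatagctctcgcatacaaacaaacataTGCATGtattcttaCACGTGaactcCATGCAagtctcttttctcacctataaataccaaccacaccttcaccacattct
SESA3: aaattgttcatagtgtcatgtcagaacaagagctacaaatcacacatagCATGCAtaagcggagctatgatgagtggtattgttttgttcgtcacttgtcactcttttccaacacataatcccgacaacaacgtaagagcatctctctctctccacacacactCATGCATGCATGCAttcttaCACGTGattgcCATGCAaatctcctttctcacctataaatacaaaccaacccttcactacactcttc

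In PAP85 the matches are 2 overlapping RY cores, 31 and 29 bases before the start, and no G-box is present. In the 2S albumins the G-box begins 65 to 68 bases before the start. An RY core begins 11 bases downstream of the first base of the G-box. SESA1 to SESA4 stand side by side within 6955 bp of chromosome 4. No other annotated gene overlaps any of the 9, and 0 of the 50-base windows of each member's transcript occur elsewhere in the genome. A match is a description of these letters and not a shown binding site.

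**Figure D1:**
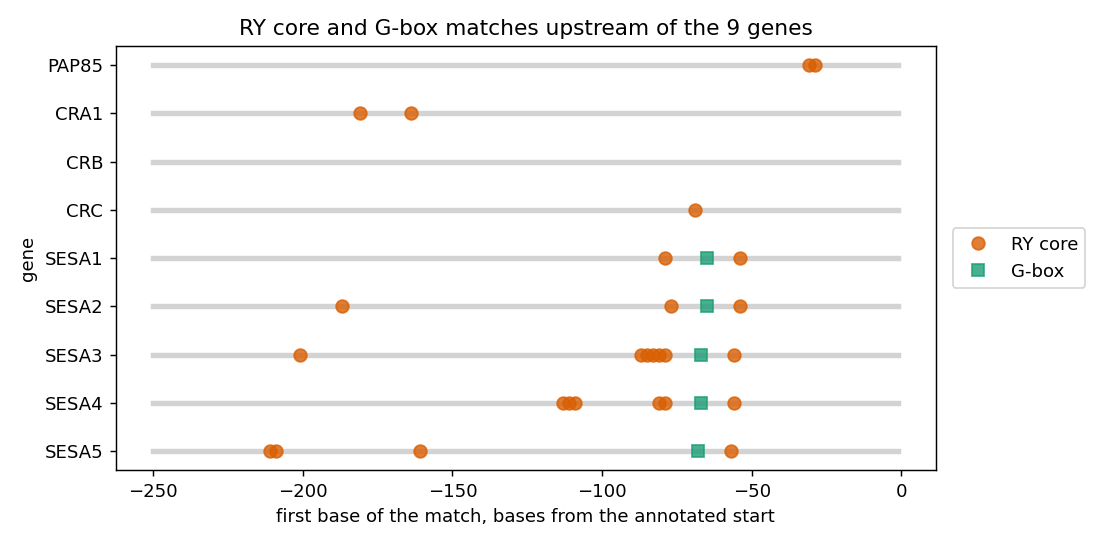
Position of RY core (circles) and G-box (squares) matches in the 250 bases before the annotated start of the 9 genes, as the distance in bases of the first base of the match from that start. The 5 albumins share a G-box at 65 to 68 bases before the start, and PAP85 has only the 2 RY cores at 31 and 29 bases.

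The table lists FPKM for 12 libraries, whose sums ran from 428556 to 494126. Between 4935 and 7526 genes were at 0 in a library, the most in WT hrcC replicate 1. Of all listed genes, 3501 (12.8%) were at 0 in every library. Of 343 genes annotated as ribosomal protein genes, 13 were at 0 in every library. Whether such a 0 is absence was not determined, so an exact 0 is reported as a listed 0. Read counts are not in the table. In 7 libraries whose low values share a clear step, all 7 CRA1 values above 0 and all 3 of SESA2 were within 0.05 of whole multiples of the lowest, but only 2 of 4 of SESA1, 2 of 6 of SESA4 and 3 of 7 of PAP85 were. The lowest value of each gene matches by construction. In the libraries labelled Atg3bp1, PAP85 was at 46.2 to 60.2 multiples, where a tolerance of 0.05 cannot tell whole multiples from others. The CRA1 values were 1 to 12 multiples of the lowest, so they may rest on few fragments. The number of fragments behind a value was not determined.

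PAP85 was at 0.0504, 0.147 and 0.109 FPKM in WT mock replicates 1, 2 and 3. In the libraries labelled Atg3bp1 mock it was at 2.85, 2.73 and 3.89 FPKM. In WT hrcC it was at 0, 0.0972 and 0.859 FPKM, and in Atg3bp1 hrcC at 2.46, 1.75 and 2.73 FPKM. The 6 libraries labelled Atg3bp1 lay above all 6 labelled WT, and WT hrcC replicate 3 stood apart from the other libraries labelled WT. The mean in mock was 0.102 ± 0.0487 (SD, n = 3) under the label WT and 3.16 ± 0.636 (SD, n = 3) under Atg3bp1. On the log2(FPKM + 1) scale of the rescaled values, the difference between the labels was 1.97 in mock and 1.44 in hrcC, and it depends on the pseudocount, which shrinks the change of a gene this low. Among the 17158 genes whose mean reached 1 FPKM, 121 were higher and 80 lower in every library labelled Atg3bp1 than in every library labelled WT, 1.17% in all. PAP85 is among the 121 by the way it was chosen. PAP85 reached the mean of 1 FPKM through the Atg3bp1 libraries alone, and in a whole seedling fewer cells with the transcript and less transcript per cell cannot be told apart.

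**Figure D2:**
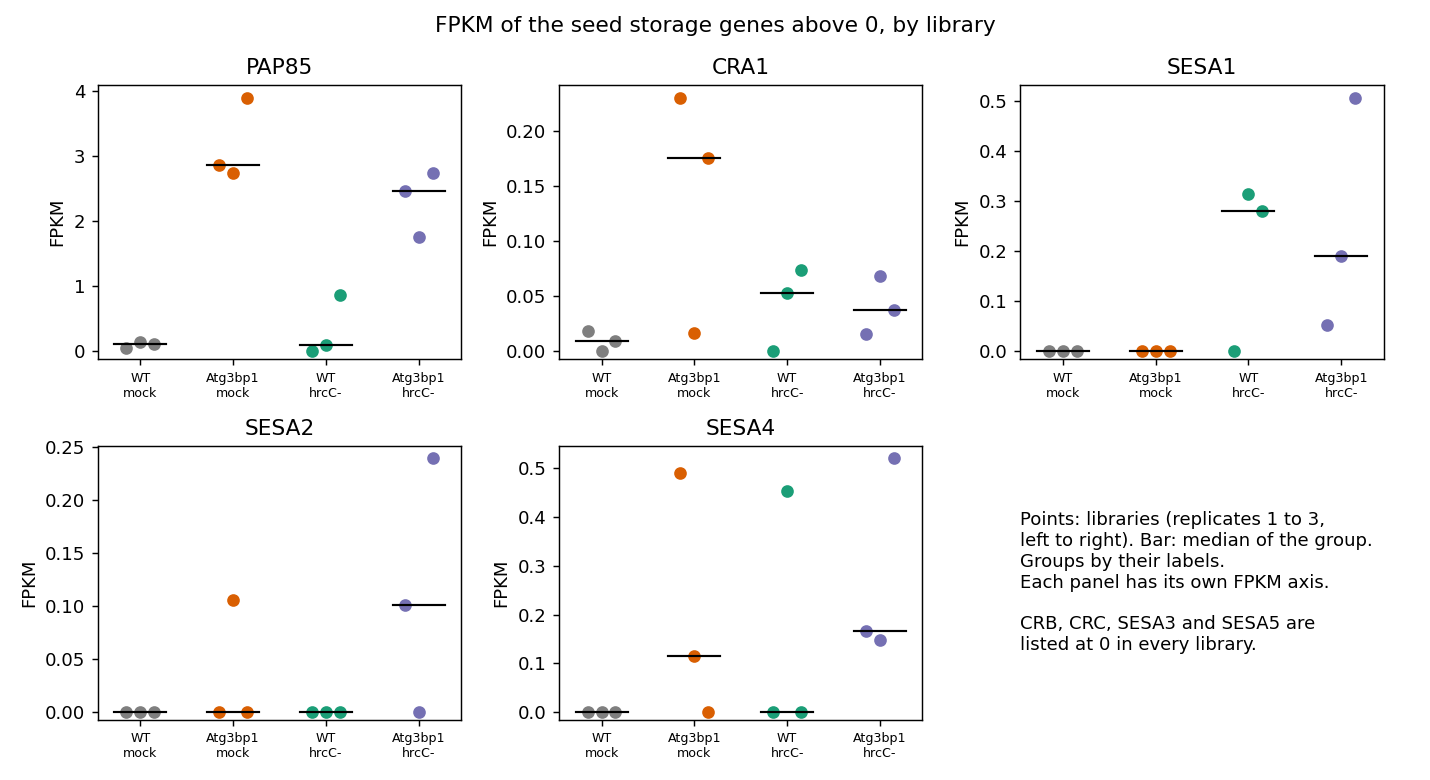
FPKM (vertical axes, a scale for each panel) of the 5 seed storage genes above 0, by labelled group. Each point is a library and each bar a group median. PAP85 at 1.75 to 3.89 in the Atg3bp1 groups lies above all WT points, whereas the other 4 genes stay at or below 0.520, and for each of them the 6 Atg3bp1 libraries overlap the 6 WT libraries.

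PAP85 was not called between hrcC and mock under either label. Under the label WT it stayed at or below 0.859 FPKM, too low for a 2-fold change on the log2(FPKM + 1) scale. No call was therefore possible there. In limma over all 4 groups, with Benjamini-Hochberg adjustment over all tested genes, the difference hrcC minus mock on the log2(FPKM + 1) scale was 0.23 ± 0.25 (SE) under the label WT, with an adjusted p = 0.707. Without WT hrcC replicate 3 it was -0.06. Under Atg3bp1 it was -0.30 ± 0.25 (SE), with an adjusted p = 0.689. The interaction was -0.53 ± 0.35 (SE), with an adjusted p = 1.00 and a 95% interval from -1.29 to 0.24.

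Of the other globulins, CRA1 was above 0 and did not separate the labels library by library. CRA1, a 12S globulin gene, was at 0.0182, 0 and 0.00986 FPKM in WT mock. It was at 0.231, 0.0165 and 0.175 in Atg3bp1 mock, at 0, 0.0527 and 0.0736 in WT hrcC, and at 0.0157, 0.0686 and 0.0374 in Atg3bp1 hrcC. Atg3bp1 mock replicates 1 and 3 were the highest of all libraries, and replicate 2 lay below the highest WT mock library, so the groups overlap. Whether CRA1 differed from PAP85 in its response to the label was not tested. The difference between the labels in mock was 0.18 ± 0.06 (SE) on the log2(FPKM + 1) scale, with limma's adjusted p = 0.194, and in hrcC it was -0.00 ± 0.06 (SE). As for PAP85, the size depends on the pseudocount, which shrinks the change of a gene this low. In mock it was 1.04 with a pseudocount of 0.1 FPKM and 0.33 with 0.5 FPKM, with limma's adjusted p = 0.201 and 0.193. CRB and CRC were listed at 0 in all 12 libraries.

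The 2S albumins were low and uneven. SESA1 was listed at 0 in all 6 mock libraries. It was at 0, 0.314 and 0.280 FPKM in WT hrcC and at 0.0536, 0.191 and 0.506 FPKM in Atg3bp1 hrcC. It was thus above 0 in 5 of 6 hrcC libraries, the exception being the library with the most genes at 0. Of the 23870 genes above 0 in some library, 16 (0.067%) were at 0 in all mock libraries and above 0 in at least 5 hrcC libraries. The reverse was seen for 7 (0.0293%). limma's adjusted p for SESA1, hrcC against mock, was 0.426 under the label WT and 0.332 under Atg3bp1.

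SESA2 was above 0 in 3 libraries, all labelled Atg3bp1, at 0.105 FPKM in mock replicate 2 and at 0.101 and 0.239 FPKM in hrcC replicates 1 and 3. For comparison, 39 of the 23870 genes (0.163%) were at 0 in all WT libraries and above 0 in at least 3 Atg3bp1 libraries. The reverse was seen for 36 (0.151%). SESA4 was at 0 in the 3 WT mock libraries and at 0.489, 0.115 and 0 FPKM in Atg3bp1 mock. It was at 0, 0.453 and 0 FPKM in WT hrcC and at 0.165, 0.147 and 0.520 FPKM in Atg3bp1 hrcC, so its label groups overlap. SESA3 and SESA5 were listed at 0 in all 12 libraries. With PAP85 left out, the members summed to 0 to 0.0182 FPKM in WT mock, to 0.175 to 0.720 in Atg3bp1 mock, to 0 to 0.819 in WT hrcC and to 0.336 to 1.30 in Atg3bp1 hrcC.

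A call needed both a 2-fold change and an adjusted p not above 0.05. Of the 9 members, PAP85 passed the filter of 1 FPKM, 4 were fitted without it, and 4 could not be fitted because they were at 0 throughout. In WT hrcC against WT mock 0 of the members were called, against 2.95% of the filtered and 1.77% of the unfiltered genes. In Atg3bp1 hrcC against Atg3bp1 mock 0 were called, against 2.98% and 1.77%. Of the 8 members other than PAP85, 0 were called between the labels in mock, against 0.676% and 0.0754%, in hrcC, against 0.0117% and 0.00419%, and over both conditions, against 0.618% and 0.101%. In the interaction 0 of the 17158 genes (0%) were called, with 684 at an unadjusted p below 0.05. At an unadjusted limma p below 0.05 there was 1 of these 8 members, 4 of them fitted, between the labels in mock (CRA1). There was 1 in Atg3bp1 hrcC against mock (SESA1) and 0 in the other comparisons. Of the 17158 filtered genes, 3490 and 2456 were below 0.05 in those 2 comparisons. In WT hrcC against WT mock 2953 were, between the labels in hrcC 846, and over both conditions 3537. Against such counts, 1 of 4 fitted members is not a result about CRA1 or SESA1. With shares of called genes as low as those above, 0 calls among 4 fitted genes does not show that these genes were alike between the groups. The 4 fitted members other than PAP85 also stayed at or below 0.520 FPKM. On the log2(FPKM + 1) scale that is too low for a 2-fold change. Their 0 calls in the main fit were therefore fixed in advance. The same holds for PAP85 in WT hrcC against WT mock, where it was at or below 0.859 FPKM.

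Within each label, CRA1, SESA1 and SESA4 were compared with PAP85 over the 6 libraries on the log2(FPKM + 1) scale. Pearson's r was 0.771, 0.606 and -0.141 under the label WT and 0.394, -0.146 and -0.0928 under Atg3bp1. The points share libraries whose exact depth is unknown, and the values are given as a description.

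Over all 12 libraries, the tested gene most like PAP85 was AtG3BP1, with r = 0.934. The next were AT2G17880, a DnaJ-domain protein (r = 0.915), AT5G44260, a CCCH zinc finger protein (r = 0.91), AT1G26270, a phosphatidylinositol kinase family protein (r = 0.908), and AT1G02620, a small GTP-binding family protein (r = 0.902). The seed storage members were left out of this ranking, so it cannot show whether another of them resembles PAP85. Of 17157 genes, 146 reached r of at least 0.8 and 72 of at most -0.8. The libraries share the genotype labels, so the separation by label is part of each of these values.

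**Figure D3:**
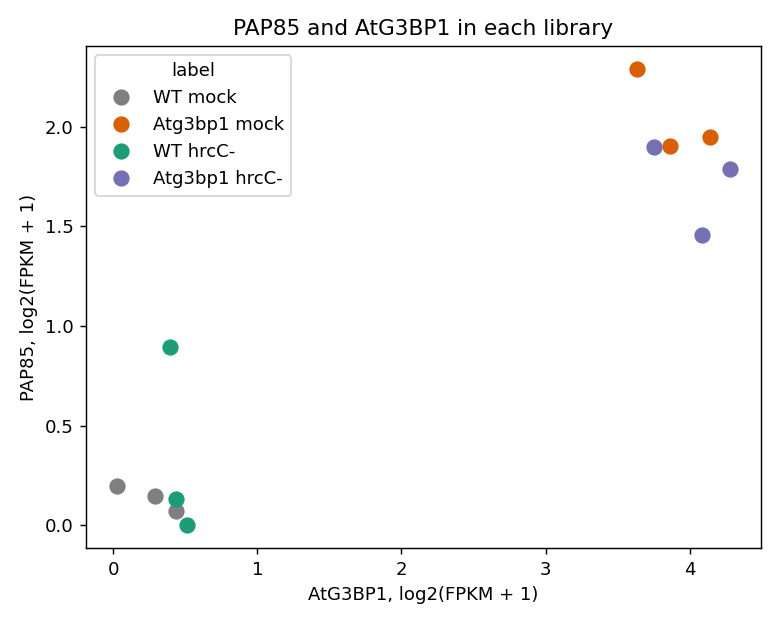
PAP85 against AtG3BP1 in each of the 12 libraries, both as log2(FPKM + 1), coloured by label. The 6 Atg3bp1 libraries, at 11.4 to 18.4 FPKM of AtG3BP1, are all above the 6 WT libraries in PAP85, and WT hrcC replicate 3 at 0.859 FPKM is the highest of the WT libraries.

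The genes that flank PAP85 were also examined. PBD1, a proteasome subunit gene, was at 23.8 to 51.8 FPKM over the 12 libraries, and CEG, an F-box gene, was listed at 0 in all of them.

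The rest of the seed programme was described by lists. With 0.0117% to 2.98% of all filtered genes called in a treatment or label comparison, a count of 0 to 2 among lists this short is near the background and is not a result about them. Of the 6 other cupin storage genes, 2 had a mean of at least 1 FPKM, the higher being AT1G07750 at 17.6 FPKM, and 0 were called. Of 9 oil body proteins, which coat the lipid stores, 2 passed the filter and 0 were called. The highest was OLEO4, an oleosin, at 1.54 ± 1.21 (SD, n = 3) FPKM in WT mock and 2.16 ± 0.926 (SD, n = 3) in Atg3bp1 mock, a difference smaller than the spread. Of 13 LEA and dehydration proteins, 2 passed the filter and 0 of these were called. Of 12 maturation factors, 4 passed and 0 were called. BZIP53, a bZIP activator of storage protein genes, was the highest at a mean of 47.2 FPKM, whereas the master regulators stayed at or below 0.109 FPKM in every library (LEC1, LEC2, FUS3 and ABI3). Of 9 repressors of the programme, 8 passed and 0 were called. ASIL1, a trihelix repressor, was the highest at 13.5 FPKM. The median difference between the labels in mock was -0.16 over the 8, against -0.00 over all tested genes. Of 9 genes for storage protein sorting and processing, 5 passed and 0 were called, the highest being the aspartic protease APA1 at 68.0 FPKM.

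**Figure D4:**
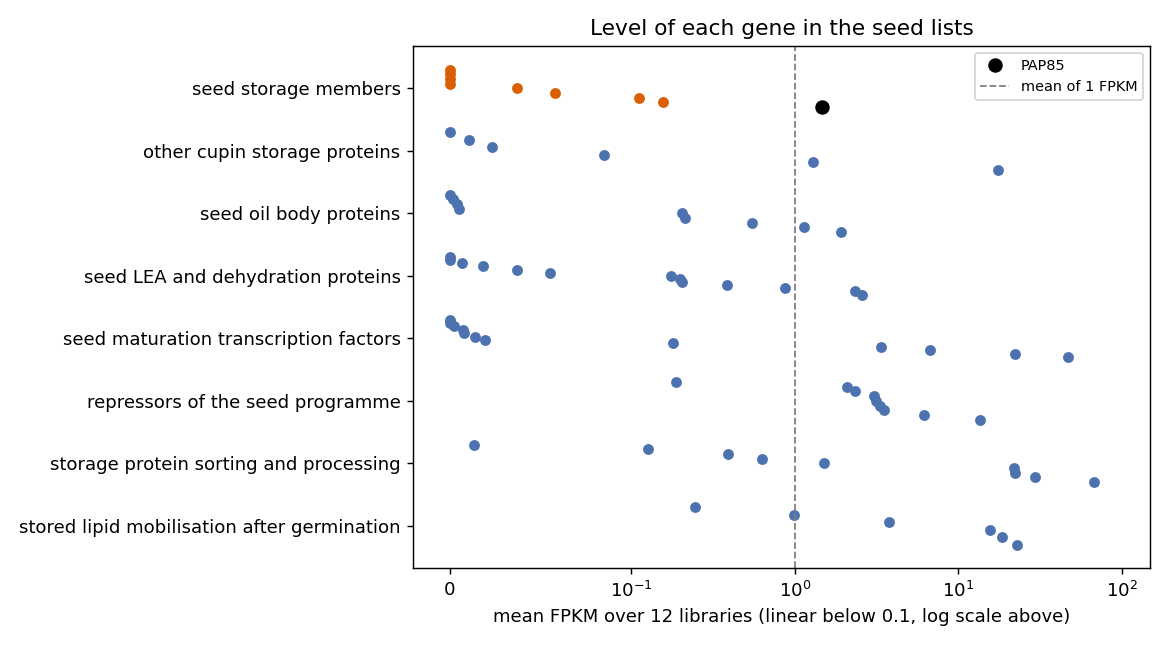
Mean FPKM over the 12 libraries (horizontal axis, linear below 0.1 and logarithmic above) of each gene in 8 seed lists. The seed storage members, in orange with PAP85 in black at 1.47, lie at the left, and the 4 at 0 are drawn there, while 8 of the 9 repressors lie right of the dashed line at 1 FPKM.

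Of 6 genes for the mobilisation of stored lipid after germination, 4 passed the filter and 1 was called, SDP1. With M10, which was below the filter, 2 genes of all these lists were called. SDP1, the lipase that starts the breakdown of stored oil, was at 5.26, 9.09 and 12.4 FPKM in WT mock and at 19.3, 20.1 and 22.0 FPKM in Atg3bp1 mock. It was at 16.0, 20.7 and 20.1 FPKM in WT hrcC and at 33.0, 25.3 and 20.6 FPKM in Atg3bp1 hrcC. WT mock was thus below every other group, and the share of all genes with this pattern was not counted. The difference between the labels in mock was 1.32 ± 0.27 (SE) on the log2(FPKM + 1) scale, with limma's adjusted p = 0.0439, and WT hrcC exceeded WT mock by 1.07 ± 0.27 (SE), with an adjusted p = 0.0466. With the replicate block the adjusted p was 0.0808 and 0.0700, which ends both calls. When each of the 12 libraries was left out in turn, the first call was kept only without replicate 3 of WT mock or without replicate 1 or 2 of WT hrcC (3 of 12), and the second only without WT mock replicate 3 or WT hrcC replicate 1 (2 of 12). Without WT mock replicate 1, the lowest library, the differences were 1.12 and 0.87.

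M10, a LEA-type late embryogenesis gene below the filter, was at 0, 0.0426 and 0.156 FPKM in WT mock and at 1.30, 0.909 and 0.751 FPKM in Atg3bp1 mock. In WT hrcC it was at 3.84, 0.600 and 0.956 FPKM, and in Atg3bp1 hrcC at 0.565, 0.775 and 0.606 FPKM. WT mock was thus below every library of every other group, and not of WT hrcC alone. The share of all genes with WT mock lowest, as for SDP1 and M10, was not counted, so the pattern is not read as particular to them. Of the 507 genes called in WT hrcC against WT mock in the main fit, 459 were higher in WT hrcC. Of the 116 called between the labels in mock, 106 were higher under Atg3bp1. The difference between WT hrcC and WT mock, in the fit without a filter, was 1.14 ± 0.25 (SE) on the log2(FPKM + 1) scale. Its adjusted p by limma was 0.0461, and the call was lost under 18 of 24 alternatives. Among these, leaving out any library but WT hrcC replicate 2 lost it. Without WT hrcC replicate 1, the highest library, it was 0.78.

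Markers of seed, shoot and root were set beside these values. Of 11 seed and embryo markers (OLEO1 to OLEO4, CLO1, EM1, EM6, LEC1, LEC2, FUS3 and ABI3), 8 never exceeded 0.2 FPKM, and their sum was 1.24 to 3.91 FPKM in WT mock, 1.87 to 4.79 in Atg3bp1 mock, 2.37 to 4.86 in WT hrcC and 1.63 to 2.90 in Atg3bp1 hrcC, ranges that overlap. The 8 shoot markers, led by RBCS1A, and the 10 root markers were above 1 FPKM on average, as the label whole seedlings implies. The 10 root markers summed to 49.0 to 68.6 FPKM in WT mock and 68.2 to 99.6 in Atg3bp1 mock, and to 39.2 to 57.8 in WT hrcC and 39.7 to 61.2 in Atg3bp1 hrcC. In mock all 10 had a difference above 0 between the labels, with a median of 0.42, against -0.00 over all tested genes, and 0 were called. In hrcC, where PAP85 also separated the labels, 7 of the 10 were above 0. The median there was 0.12, against 0.004 over all tested genes. Their part in the PAP85 difference was not tested.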

How the data were processed

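The authors prepared stranded mRNA libraries, trimmed paired-end reads (Trimmomatic), mapped them on TAIR10 (TopHat), and deposited Cufflinks FPKM per gene and replicate. Transcript length and library size are divided out of FPKM. The paper gives an approximate number of reads for all samples alike, but the exact depth of each library is not given here. No interval that needs counts was made. How strand was used in the counting is not given in the sources used here.

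Columns were assigned to groups by their names and labels. Labels name the mutant as Atg3bp1, and that it is an insertion line comes from the paper. Each library was divided by a factor (0.867 to 1.33) setting the 75th percentile of its FPKM above 0 to the same value in all. The 17158 genes averaging 1 FPKM or more were fitted as log2(FPKM + 1) with limma 3.58.1 in R 4.3.3, 4 groups together, with a trend of the prior variance. P-values were adjusted by Benjamini-Hochberg in each of 6 contrasts. Members below the filter took values from the same fit on the 23870 genes above 0 in some library. The fit was tested on simulated data. Tables and plots were made in Python 3.11.15 using matplotlib 3.10.9, numpy 2.4.6 and pandas 2.3.3. Annotation and promoters are from TAIR10.1 (RefSeq), in which all 9 members and 26703 of 27371 identifiers were found. The table itself gives no coordinates.

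The members and lists were chosen with earlier results of these data known. The genes named are the members, AtG3BP1, the called or otherwise highest gene of each list, and the 5 tested genes most correlated with PAP85. The seed, shoot and root markers come from a separate marker list. PBD1 and CEG were named beyond these.

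Alternatives were no rescaling, median-ratio and quantile scaling, pseudocounts of 0.1 and 0.5 FPKM, no filter or 5 FPKM, no trend, a replicate block, a term for the 3 libraries with the highest scaling factors, removal of a trend with exon length, each pair of groups alone, and each library left out. An upper quartile over genes above 0 in some library was chosen after seeing the data.

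The study states that samples came from 3 independent experiments. Libraries with the same replicate number were compared by the correlation of their deviations from the group means. In mock, the 3 pairs of WT and Atg3bp1 libraries had 0.376, 0.111 and 0.319, all above 0.1. The main fit still compared the labels in mock without pairing, and the pairing entered only as the alternative with a replicate block. With that block 8 genes were called in mock between the labels, against 116 in the main fit. In the other comparisons at least 1 pair was at or below 0.1.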

Additional observations from a re-analysis of the deposited data

How the results depend on the processing

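The count of members called was 0 in each comparison, with PAP85 left out of the 3 comparisons between the labels. It stayed 0 under all 24 or 25 alternatives run for it. The 4 members listed at 0 can give nothing else. The 4 fitted members other than PAP85, at or below 0.520 FPKM, cannot reach a 2-fold change with a pseudocount of 1 FPKM. Alternatives that keep this pseudocount therefore add nothing about them. Nor do they about a call of PAP85 in WT hrcC against WT mock, where it was at or below 0.859 FPKM. The replicate block changed no call of a member. PAP85 differed between the labels by 1.97 in mock, 1.44 in hrcC and 1.70 over both conditions on the log2(FPKM + 1) scale, and with a pseudocount of 0.1 FPKM by 4.14, 3.23 and 3.68, with 0.5 FPKM by 2.67, 1.98 and 2.33. Leaving out 1 library each gave 1.83 to 2.04, 1.27 to 1.72 and 1.62 to 1.85. The PAP85 difference of hrcC and mock under the label WT turned from 0.23 to -0.056 without WT hrcC replicate 3 (range over single libraries left out, -0.056 to 0.40). At a filter of 5 FPKM PAP85 was not tested.

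Counts of all called genes, which set the background, moved more. Between the labels in mock 116 genes were called, 8 with the replicate block, 581 with a term for the 3 libraries with the highest scaling factors, and 5 to 337 when 1 library was left out. Over both conditions there were 106, 39 with the block, 24 without a filter, 258 with that term, and 14 to 205 with 1 library left out. In WT hrcC against WT mock 507 became 229 with only the 2 groups compared and 847 with the term, and 357 to 728 with 1 library left out. In Atg3bp1 hrcC against Atg3bp1 mock 512 became 383 to 711, and 313 to 590 with 1 library left out. In hrcC between the labels it was 2, and 1 to 4. Of 24 alternatives each, the call of SDP1 was lost under 13 in mock between the labels and under 13 for hrcC under the label WT. The cause was not tested.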
